A study of Mus musculus with 6 samples.

Results

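The 10 choroid plexus genes described here were followed across 6 arrays of newborn mouse cerebellum RNA. They were Ttr, Kcne2, Clic6, Aqp1, Kcnj13, Slc4a5, Otx2, Prlr, Sostdc1 and Kl. They were taken by gene symbol from the array annotation, which gave 15 probes for the 10 genes, out of 55681 probes with 34797 gene symbols. The genes had been picked with earlier values from these same arrays in view, so their levels, their dose differences and their correlations are given as a description and no test of them was made. Each gene is represented by its brightest probe, and the other probes of a gene are reported where they exist.

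The choroid plexus is a fringe of epithelium and vessels that hangs into the brain ventricles, including the fourth ventricle beneath the cerebellum. Its epithelial cells make the cerebrospinal fluid by moving ions and water from blood to ventricle, and they secrete carrier proteins and growth factor regulators into that fluid. The genes followed here cover the secreted thyroid hormone carrier of this epithelium, its channels and their subunits, an ion cotransporter, a transcription factor that specifies it, and hormone receptors and regulators found in it.

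The mice were C57BL/6J. Dams were kept on an amino acid-based custom diet (AIN-93G) that held folic acid (FA) at either 2 mg or 20 mg per kg, starting 1 week ahead of mating and lasting until birth, and pups were sampled on postnatal day 1. Every array carried RNA pooled from 3 pups of the same sex that came from 3 separate dams, with 1 array per sex at 2 mg and 2 arrays per sex at 20 mg. The 2 mg groups therefore had no replicate. The 20 mg extractions were done again from another batch of pups, and the sources do not state which 20 mg array carries which batch. Sample titles and methods name the cerebellum, while 1 label field reads whole brain. Tissue dissected this way can hold different amounts of choroid plexus, and in bulk RNA a smaller amount of a cell type and less RNA per cell cannot be told apart.

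The arrays were not of equal quality. On female 20 mg replicate 2, 23.3% of probes were well above background and the median processed signal was 5.14, against 51.1% to 71.9% and 39.0 to 162 on the other 5 arrays. Its mean Spearman correlation with the other arrays was 0.658, against 0.861 to 0.889 for the others. Slide 1 held both 2 mg arrays and female 20 mg replicate 1, slide 2 held female 20 mg replicate 2 and male 20 mg replicate 1, and slide 3 held male 20 mg replicate 2. As both 2 mg arrays lay on slide 1, any comparison of dose that uses the other slides also compares slides. All 14 genes of a cerebellar list were well above background on 4 arrays, 13 on male 20 mg replicate 2 and 9 on female 20 mg replicate 2.

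Promoter sequence was read from the RefSeq promoter table of mouse build GRCm38.p6, which had entries for 7 of the 10 genes in 13 windows. Each window is the 250 bases before an annotated start, written 5′ to 3′ on the strand of the gene. The 3 printed belong to a potassium channel, the subunit of another and a water channel, all genes that were lowest on the female 2 mg array. They lie at chr1:87394730-87394979 (minus strand) for Kcnj13, chr16:92292139-92292388 (plus strand) for Kcne2 and chr6:55336049-55336298 (plus strand) for Aqp1. Capitals mark a TATAAA word, which was found only in the first of them.
Kcnj13: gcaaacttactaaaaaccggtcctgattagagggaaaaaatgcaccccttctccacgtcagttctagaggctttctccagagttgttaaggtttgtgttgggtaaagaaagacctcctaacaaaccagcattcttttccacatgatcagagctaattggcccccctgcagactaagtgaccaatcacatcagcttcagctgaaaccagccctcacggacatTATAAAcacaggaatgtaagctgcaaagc
Kcne2: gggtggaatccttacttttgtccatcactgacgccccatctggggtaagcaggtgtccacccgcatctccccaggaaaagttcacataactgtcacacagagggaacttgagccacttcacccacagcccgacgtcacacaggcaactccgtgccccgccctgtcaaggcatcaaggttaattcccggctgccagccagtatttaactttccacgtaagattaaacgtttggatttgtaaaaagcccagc
Aqp1: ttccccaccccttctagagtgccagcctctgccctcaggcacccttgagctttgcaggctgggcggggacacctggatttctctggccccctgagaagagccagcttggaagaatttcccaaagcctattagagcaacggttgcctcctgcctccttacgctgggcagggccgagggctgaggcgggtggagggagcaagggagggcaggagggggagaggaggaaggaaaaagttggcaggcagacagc

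A set of 3 words was searched for on both strands in windows of this length. TATAAA (reverse TTTATA), the core of the TATA box, was in 12.4% of the 32851 promoters in the table and in 1 window each of Kcnj13, Slc4a5 and Otx2. In Kcnj13 it began at position -29 from the annotated start, in Slc4a5 at -127 and in Otx2 at -192. TAATCC (reverse GGATTA), a word bound by OTX proteins, was in 6.25% of all promoters and in 1 of the 13 windows, an alternative start of Otx2 itself. GTAAACA (reverse TGTTTAC), a forkhead word, was in 3.17% of all promoters and in 1 window of Prlr. No word was shared by more than 3 of the 7 genes.

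Across the arrays the main feature of these genes was the female 2 mg array. Of the 10, 6 genes, namely Ttr, Kcne2, Clic6, Aqp1, Kcnj13 and Slc4a5, had their lowest value of all 6 arrays there, which 5.33% of all 37211 probes tested did. They are the same 6 that were higher on both female 20 mg arrays than on the female 2 mg array (21.2% of all probes), which their lowest value there fixes. Before normalization, each of these 6 had a lower processed signal on the dim female 20 mg replicate 2 than on the female 2 mg array. Their higher level on that replicate therefore rests on the normalization of a dim array. In males both 20 mg arrays were above the 2 mg array for 4 genes, Ttr, Kcne2, Clic6 and Sostdc1, as for 20.4% of all probes, and no brightest probe differed by 2.5-fold between doses. The brightest probe of Otx2 varied little, and Prlr, Sostdc1 and Kl had their lowest value on the dim female 20 mg replicate 2. All levels below are quantile normalized log2 signals with a floor of 10 on the linear scale. Each dose difference is the mean of the 20 mg arrays minus the 2 mg array, with the standard error (SE) of the limma fit. This SE rests on a spread per probe that both sexes share, so it is the same in males and females. That spread comes from the 20 mg pairs, including the dim array, and is drawn toward that of other probes. The single 2 mg arrays add nothing to it.

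Ttr encodes transthyretin, the carrier of thyroxine and of retinol-binding protein that choroid plexus epithelium secretes into cerebrospinal fluid. Its level was 11.21 on the female 2 mg array, 16.16 and 14.59 on female 20 mg replicates 1 and 2, 14.26 on the male 2 mg array, and 15.31 and 15.30 on male 20 mg replicates 1 and 2. The female 2 mg array stood below all the others, and the male 2 mg array was the next lowest, so that the doses did not overlap in either sex. Before normalization, the processed signal of the Ttr spot was 5253 on the female 2 mg array, 50899 on the male 2 mg array and 243136 on female 20 mg replicate 1, the 3 arrays of slide 1. On the other slides it was 2014 on female 20 mg replicate 2 and 38948 and 20783 on male 20 mg replicates 1 and 2. These were below the 2 mg array of the same sex, on arrays whose median signal was also lower, so that their order turned with normalization. The dose difference was 4.16 (SE 0.94) in females, a 17.9-fold higher signal at 20 mg, and 1.05 (SE 0.94) in males, a 2.06-fold higher signal. The male pair at 20 mg differed by an SD of 0.0049, the female pair by an SD of 1.11 (n = 2 each). The range of Ttr over the 5 arrays without the dim one was 4.95, at the 98.7th percentile of the ranges of all probes.

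Kcne2, a beta subunit that modifies potassium channels of the apical membrane (probe at mm9 chr16:92298236-92298295), read 6.12 on the female 2 mg array and 9.27 and 11.08 on the female 20 mg arrays. In males it read 7.99 at 2 mg and 8.99 and 8.35 at 20 mg. All 4 arrays at 20 mg were above both arrays at 2 mg, as was also so for Ttr and Clic6 and for 3.75% of all probes. The dose difference of Kcne2 was 4.05 (SE 1.66) in females and 0.68 (SE 1.66) in males. The dim array gave the highest value, and without it the female difference was 3.33.

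Kcnj13 encodes Kir7.1, an inwardly rectifying potassium channel of the same membrane (brightest probe at mm9 chr1:89282991-89283050). Its levels were 7.31 at 2 mg and 8.72 and 10.02 at 20 mg in females, and 8.20 at 2 mg and 9.24 and 8.01 at 20 mg in males. The female values did not overlap between doses, while the male 2 mg array lay between the male 20 mg arrays. The dose difference was 2.06 (SE 1.67) in females and 0.43 (SE 1.67) in males. The second probe of Kcnj13, 132 bases away, gave 0.54 and -0.39, respectively, and was not well above background on the dim array.

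Clic6, a member of the chloride intracellular channel family that marks this epithelium (mm9 chr16:92541363-92541422), read 7.27 at 2 mg and 10.38 and 9.77 at 20 mg in females. The male values were 8.78 at 2 mg and 9.38 and 8.85 at 20 mg. The female arrays were well separated, and the lower male 20 mg array was above the male 2 mg array by only 0.07. The dose difference was 2.80 (SE 1.49) in females and 0.34 (SE 1.49) in males.

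Aqp1 encodes the water channel of the ventricular surface (mm9 chr6:55298480-55298539). It read 7.30 at 2 mg and 10.22 and 9.41 at 20 mg in females, but 8.66 at 2 mg and 7.78 and 7.75 at 20 mg in males. Aqp1 was the only one of the 10 for which both 20 mg arrays lay above the 2 mg array in females and both lay below it in males. The female part held for 21.2% of all probes, and the share of all probes with both parts was not counted. The dose difference was 2.52 (SE 1.67) in females and -0.89 (SE 1.67) in males.

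Slc4a5, an electrogenic sodium bicarbonate cotransporter that carries bicarbonate across the epithelium, had its brightest probe at mm9 chr6:83253664-83253723. That probe read 5.06 at 2 mg and 7.75 and 10.13 at 20 mg in females, and 6.76 at 2 mg and 8.24 and 6.64 at 20 mg in males. The female doses were apart and the male doses overlapped. The dose difference was 3.88 (SE 2.10) in females and 0.68 (SE 2.10) in males. A second Slc4a5 probe 4220 bases away ran the other way in females, with 8.44 at 2 mg and 5.74 and 5.41 at 20 mg, a difference of -2.86. In males this second probe gave 1.38, a 2.60-fold higher signal at 20 mg, the only 1 of the 15 probes past the criterion of the study in males. The correlation between the pair of probes over the 6 arrays was -0.49, so that the result for Slc4a5 depended on the probe chosen, and the mean of the pair gave 0.51 in females.

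**Figure D1:**
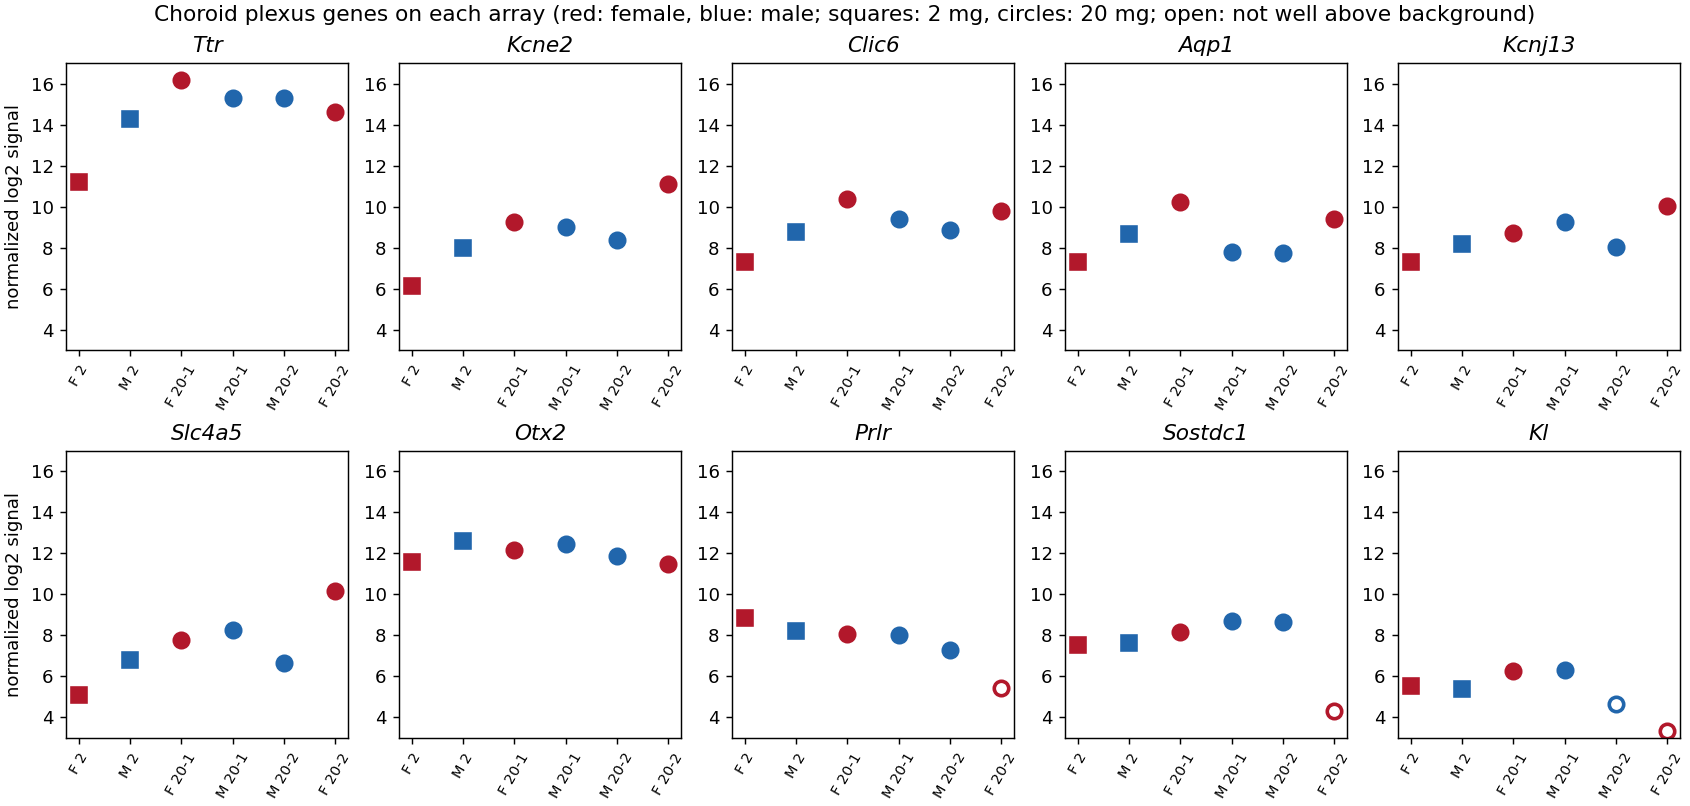
Normalized log2 signal (y axis) of the brightest probe of each of the 10 genes on each array (x axis; F female, M male, mg FA per kg diet, replicate), with squares for 2 mg, circles for 20 mg and open symbols where the probe was not well above background. Ttr, Kcne2, Clic6, Aqp1, Kcnj13 and Slc4a5 are lowest on the female 2 mg array, and Prlr, Sostdc1 and Kl are lowest, with open symbols, on female 20 mg replicate 2.

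Otx2 is a homeobox transcription factor needed to form and maintain choroid plexus, and it is also expressed in the early cerebellum. Its brightest probe (mm9 chr14:49277855-49277914) read 11.55 at 2 mg and 12.16 and 11.49 at 20 mg in females, and 12.61 at 2 mg and 12.46 and 11.87 at 20 mg in males. The doses overlapped in females, and both male 20 mg arrays were slightly below the male 2 mg array, an order whose share of all probes was not counted. The range over 5 arrays was 1.06, at the 31.1st percentile of all probes. The dose difference was 0.27 (SE 1.01) in females, where its sign changed without female 20 mg replicate 1 and with the mean of both probes, and -0.45 (SE 1.01) in males. A second probe, annotated to a different Otx2 transcript 7097 bases away, read 8.31 at 2 mg and 5.56 and 3.57 at 20 mg in females, the last not well above background. Its difference was -3.75 in females, lower by the criterion of the study, and -0.39 in males. The pair of Otx2 probes had a correlation of 0.06.

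Prlr, the prolactin receptor, which is abundant in choroid plexus (brightest probe at mm9 chr15:10259066-10259125), read 8.84 at 2 mg and 8.07 and 5.43 at 20 mg in females, the last not well above background. In males it read 8.22 at 2 mg and 7.99 and 7.26 at 20 mg. In each sex both 20 mg arrays lay below the 2 mg array, an order whose share of all probes was not counted. Of all probes, 47.7% in females and 46.3% in males were lower on 20 mg replicate 1 than on the 2 mg array. For 20 mg replicate 2 the shares were 58.8% and 56.6%. The difference was -2.09 (SE 2.03) in females and -0.60 (SE 2.03) in males, and without the dim array the female difference was -0.79. A second Prlr probe, 3437 bases away, gave -0.71 in females and -0.46 in males and had a correlation of 0.66 with the first.

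Sostdc1 encodes a secreted inhibitor of BMP and Wnt signals (brightest probe at mm9 chr12:37044197-37044256). Its levels were 7.50 at 2 mg and 8.15 and 4.29 at 20 mg in females, the last not well above background, and 7.64 at 2 mg and 8.71 and 8.64 at 20 mg in males. The difference was 1.04 (SE 2.14) in males and -1.28 (SE 2.14) in females, where its sign turned without the dim array, to 0.69, and with each array shifted to a common 75th percentile, to 0.06. A second Sostdc1 probe 335 bases away had a correlation of 0.96 with the first and gave 0.41 in males and -1.70 in females, where it passed the criterion of the study as lower and the first did not.

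Kl encodes klotho, the co-receptor for Fgf23 that is shed into cerebrospinal fluid (mm9 chr5:151795712-151795771). It read 5.51 at 2 mg and 6.25 and 3.32 at 20 mg in females, and 5.38 at 2 mg and 6.31 and 4.62 at 20 mg in males. The lowest value in each sex was not well above background, and the one on the dim array was the floor itself. The doses overlapped in both sexes. The difference was -0.73 (SE 1.83) in females, where it turned to 0.87 without the dim array and to 1.01 with the 75th percentile shift, and 0.09 (SE 1.83) in males, where it turned to -0.69 without male 20 mg replicate 1.

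The criterion of the study called a transcript that passed a filter on variation and differed by at least 2.5-fold between doses. In females it took 4 of the 10 as higher at 20 mg (Ttr, Kcne2, Aqp1 and Slc4a5), where it took 5.43% of all probes as higher. It took 1, Prlr, as lower, where it took 15.3% of all probes. Both counts use the brightest probes. Of the second probes, it took those of Slc4a5 (-2.86), Otx2 (-3.75) and Sostdc1 (-1.70) as lower in females and none as higher. With each array shifted to a common 75th percentile instead, 2.54% of all probes were higher and 0.919% lower, and 0 of the 10 genes were called, although 7 of them passed 2.5-fold. Under quantile normalization without the variation filter, Clic6 and Kcnj13 joined, which made 6 higher against 7.12% of all probes and 1 lower against 17.3%. In males it took 0 of the 10 in either direction, against 1.7% of all probes higher and 2.97% lower, and also 0 without the variation filter, against 2.21% and 4.19%. Without the dim array it took 5 as higher in females (Ttr, Kcne2, Clic6, Aqp1 and Slc4a5) and 0 as lower, against 2.27% of all probes higher and 3.12% lower. limma called 0.0% of the 37211 probes for dose in either sex, with 161 probes at an unadjusted p under 0.05 in females and 74 in males. These counts use the values by which the genes were picked.

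The median dose difference of the 10 genes was 2.29 in females, beside -0.21 for all probes, and 0.38 in males, beside -0.04. Each female 20 mg array gave a similar median against the 2 mg array, 2.05 for replicate 1 and 2.30 for replicate 2, beside 0.03 and -0.48 for all probes. Both medians subtract the same female 2 mg array, so their likeness is partly built in. Single genes differed more, and Otx2, Sostdc1 and Kl were above the 2 mg array on replicate 1 and below it on replicate 2. The male 20 mg arrays gave 0.97 for replicate 1 and -0.15 for replicate 2, and the 10 genes were all higher on replicate 1 than on replicate 2, as were 57.6% of all probes. The spread within the male 20 mg group was thus wider than the male dose difference.

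**Figure D2:**
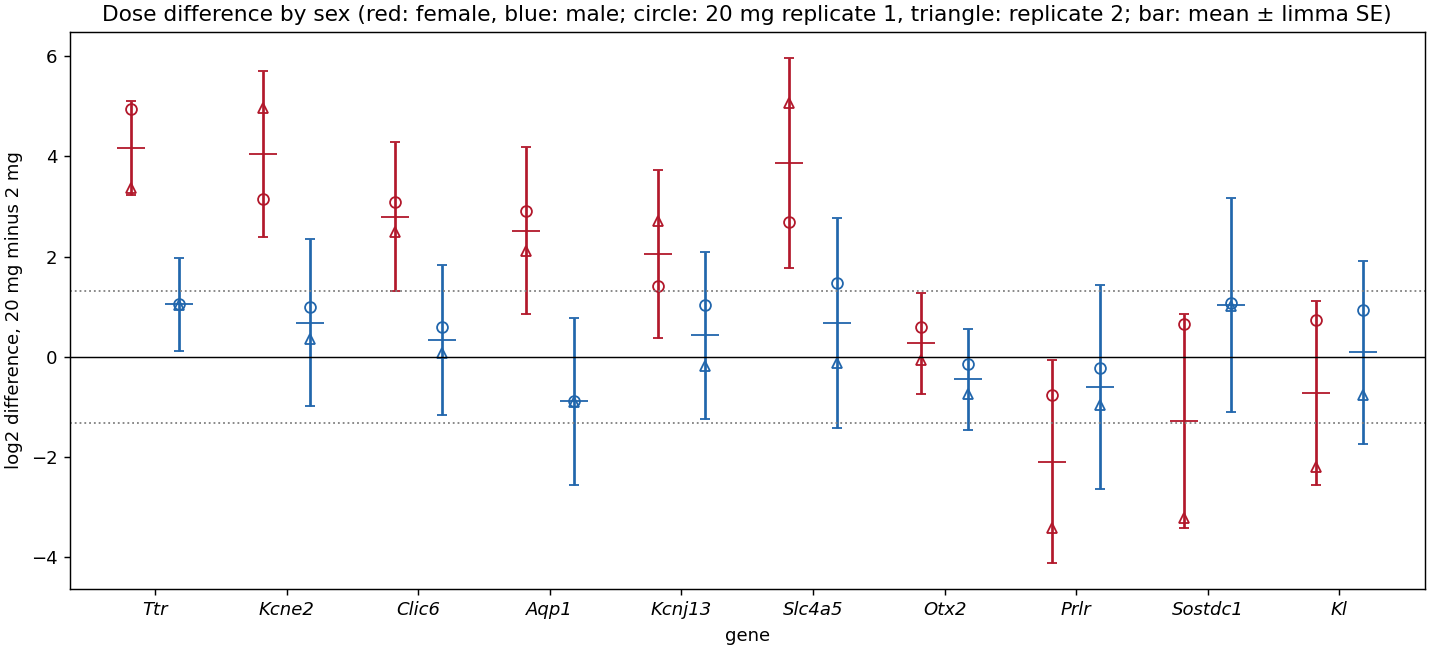
Log2 difference between 20 mg and 2 mg FA (y axis) for each gene (x axis), in females (red) and males (blue). Circles and triangles are the single 20 mg arrays (replicates 1 and 2) minus the single 2 mg array, horizontal marks with whiskers are the mean and the limma SE, and dotted lines mark 2.5-fold. Ttr has the largest female difference, 4.16, and no male mean passes the dotted lines.

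Slide 1 allows a comparison within 1 slide that uses no value of the dim array, although all 6 arrays were normalized together. For Ttr, female 20 mg replicate 1 minus female 2 mg was 4.95, and 4.70 with the dim array left out of normalization. On slide 1, 7 of the 10 genes (the 6 above and Sostdc1) ran in the order female 20 mg replicate 1, male 2 mg, female 2 mg from high to low, as did 26.4% of all probes. The male 2 mg array exceeded the female 2 mg array by at least 2.5-fold for 5 genes, Ttr, Kcne2, Clic6, Aqp1 and Slc4a5, against 0.707% of all probes. The difference between these 2 mg arrays was 3.05 for Ttr, 1.86 for Kcne2, 1.70 for Slc4a5 and 1.35 for Aqp1, with Clic6 between the last pair, so arrays of the same dose and slide also stood apart. Female 20 mg replicate 1 exceeded both 2 mg arrays by at least 2.5-fold for Ttr, Clic6 and Aqp1, against 0.519% of all probes. The median difference between female 20 mg replicate 1 and the mean of the 2 mg arrays was 1.40 for the 10 genes and 0.02 for all probes. For the female 2 mg array, the diet and the single pool cannot be told apart.

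The correlation among the genes was uneven. Over the 45 pairs, the mean Pearson r across the 6 arrays was 0.20, with 26 pairs above 0, beside a mean of 0.02 over all pairs of probes tested. For the 21 pairs of the 7 genes well above background throughout (the 6 above and Otx2), the mean was 0.57, with 18 pairs above 0, but this choice drops Prlr, Sostdc1 and Kl for their low values on the dim array. The values share arrays, slides and normalization, and 6 points support each r. Kcnj13 and Slc4a5 had the highest r, 0.99, followed by Kcne2 and Slc4a5 with 0.98 and Kcne2 and Kcnj13 with 0.95. Ttr and Clic6 had 0.90, while Kcne2 and Prlr had the lowest r of all, -0.85. Sostdc1 and Kl had 0.80 on 6 arrays but 0.06 without the dim array, on which neither was well above background.

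Single arrays set much of this correlation. Without female 20 mg replicate 2 the mean r of the 45 pairs was 0.42 and that of the 21 pairs 0.75, with all 21 above 0. Without the female 2 mg array they were 0.09 and 0.23. Ttr and Kcne2, for instance, had an r of 0.69 on 6 arrays and 0.98 on the 5 without the dim one.

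**Figure D3:**
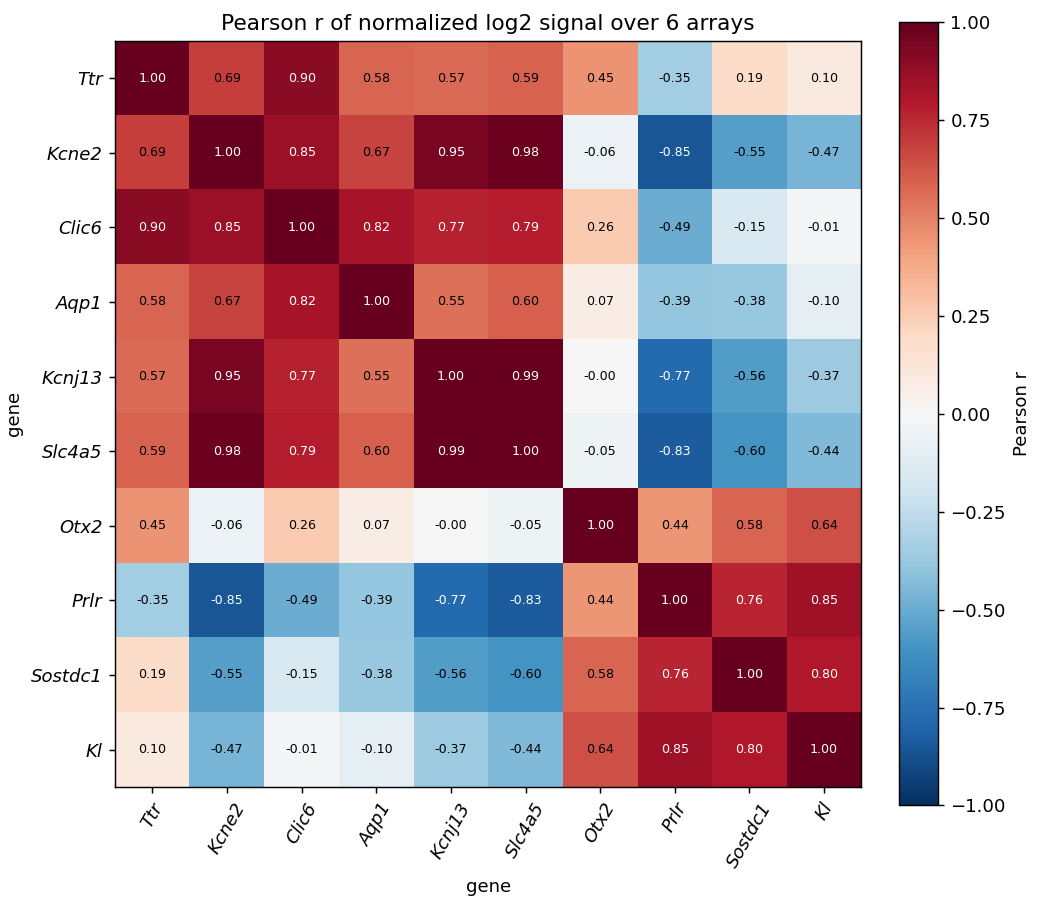
Pearson r of normalized log2 signal between each pair of the 10 genes (both axes) over 6 arrays, printed in each cell, with red for positive and blue for negative values. The block of Kcne2, Kcnj13 and Slc4a5 reaches 0.95 to 0.99, and Kcne2 and Prlr have -0.85.

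A list of 28 other genes of choroid plexus epithelium was examined beside the 10, of which 27 were tested and Mfrp was not on the array. The study's criterion took 2 as higher and 2 as lower at 20 mg in females, against 5.43% and 15.3% of all probes. In males it took 0 as higher and 1 as lower, against 1.7% and 2.97% of all probes. The median difference of the 27 genes was 0.49 in females and -0.05 in males. The 9 genes lowest on the female 2 mg array of the 5 arrays without the dim one compare with 11.2% of all probes, and with 8 of the 10 followed genes. The 6 with the highest mean signal were Slc29a4 (a monoamine transporter), Enpp2 (autotaxin), Igfbp2, Slc12a2 (the NKCC1 cotransporter), Slc13a4 (a sulfate transporter) and Slc31a1 (a copper transporter). Their female differences ran from -0.29 for Igfbp2 to 0.96 for Enpp2, and their male differences from -0.29 for Slc13a4 to 0.58 for Slc29a4.

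Some members of that list had the profile of the 6 genes, and are named here after their values were seen. Folr1, the folate receptor that loads folate into cerebrospinal fluid, read 7.26 at 2 mg and 9.36 and 10.26 at 20 mg in females, and 8.36 at 2 mg and 8.51 and 8.97 at 20 mg in males. Krt18, a keratin of simple epithelia, read 7.44 at 2 mg and 9.67 and 11.53 at 20 mg in females and was taken as higher with a difference of 3.16. F5, coagulation factor V, was also taken as higher, at 2.70, with values of 4.59, 5.38 and 9.21, so that its difference on replicate 1 alone was 0.79. Car12 (a carbonic anhydrase) and Calml4 had female differences of 2.42 and 2.07. Bmp6 and Msx1, taken as lower in females, had differences of -1.52 and -1.80, which were 0.02 and 0.25 on female 20 mg replicate 1 alone. Slc4a10, a bicarbonate transporter, was taken as lower in males at -1.44. Cldn2, a tight junction claudin of this epithelium, was at the floor on 4 of the 6 arrays.

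**Figure D4:**
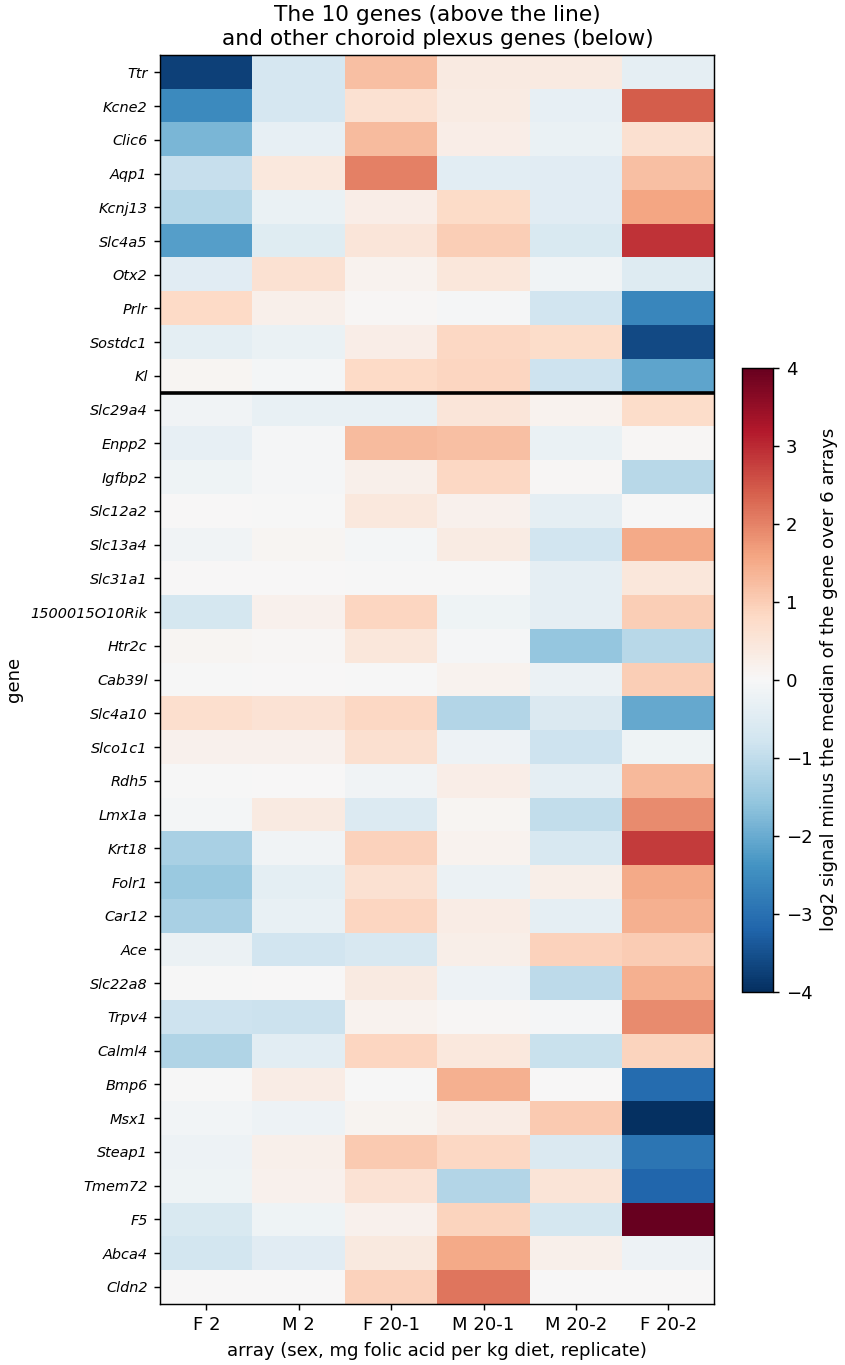
Log2 signal minus the median of each gene over 6 arrays (colour, limited to 4 in either direction) for the 10 genes (above the line) and 27 other choroid plexus genes (below, by mean signal) on each array (x axis). The female 2 mg column is blue for Ttr, Kcne2, Clic6, Slc4a5, Krt18, Folr1, Car12 and Calml4, and near white for Slc29a4, Slc12a2 and Slc31a1.

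Ligands, partners and relatives of the 10 were taken from a list of 18 genes, of which 17 were tested. In males 0 were taken in either direction, against 1.7% of all probes higher and 2.97% lower. In females 2 were taken as higher at 20 mg and 0 as lower, against 5.43% and 15.3% of all probes. The 2 were Lrp4, a receptor that binds Sostdc1, with values of 6.73, 8.96 and 10.03 and a difference of 2.76, and Otx1, the paralog of Otx2, with values of 3.47, 4.06 and 7.33, the last on the dim array. The 6 of the list with the highest mean signal were Fgf23, Fgfr1, Jak2, Lrp6, Lrp5 and Bmp7. Fgf23, the ligand of the klotho receptor complex, had a female difference of 0.57 and a male one of 1.14. The mean signal of its probe was 15.57, and whether that probe measures Fgf23 alone was not tested. Jak2, the kinase downstream of Prlr, had 0.83 and -0.34. Prl, the ligand of Prlr, was well above background on 1 array and was not tested.

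Markers of other tissues near the dissection were counted with the same criterion. Ependymal and cilia genes (13 tested) had a median difference of 0.27 in females and -0.37 in males, meningeal genes (12) -0.56 and -0.01, endothelial genes (9) -0.50 and 0.39, red cell genes (5) -0.66 and 0.33, cerebellar genes (14) -0.09 and -0.12 and forebrain genes (12) -0.87 and 0.52. In females the criterion took 1 ependymal gene as higher and 3 as lower, 3 endothelial, 3 forebrain and 1 cerebellar gene as lower, and 0 meningeal and red cell genes. Of all probes it took 5.43% as higher and 15.3% as lower in females. In males it took 3 forebrain genes and 1 ependymal gene as higher, 2 ependymal genes and 1 meningeal gene as lower, and 0 of the other lists named here. The shares of all probes in males were 1.7% higher and 2.97% lower. The summed linear level of the cerebellar list ran from 41458 to 70482 over the arrays, and that of the ependymal list from 4115 to 15807. The ependymal sum was lowest on male 20 mg replicate 1 and highest on male 20 mg replicate 2, where Spef2 alone read 4.37 and 13.66 on the log2 scale. With each ependymal gene set against its own median over the arrays, the median of the list ran only from -0.55 to 0.26. Of the marker lists plotted by array, that of the forebrain had the widest range of medians. Its median was -1.76 on the male 2 mg array relative to the female 2 mg array and 0.72 on female 20 mg replicate 1, and 12 of 12 were well above background on both female arrays of slide 1. The summed level of this list was 11335 on the female 2 mg array, 22596 on female 20 mg replicate 1, 3177 on female 20 mg replicate 2, 7940 on the male 2 mg array and 15160 and 4819 on the male 20 mg arrays. The part of dissection in these levels was not tested. Of 8 retinal pigment epithelium and pineal genes, tissues that also express Ttr and Otx2, 5 were tested and 1 to 7 were well above background per array.

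**Figure D5:**
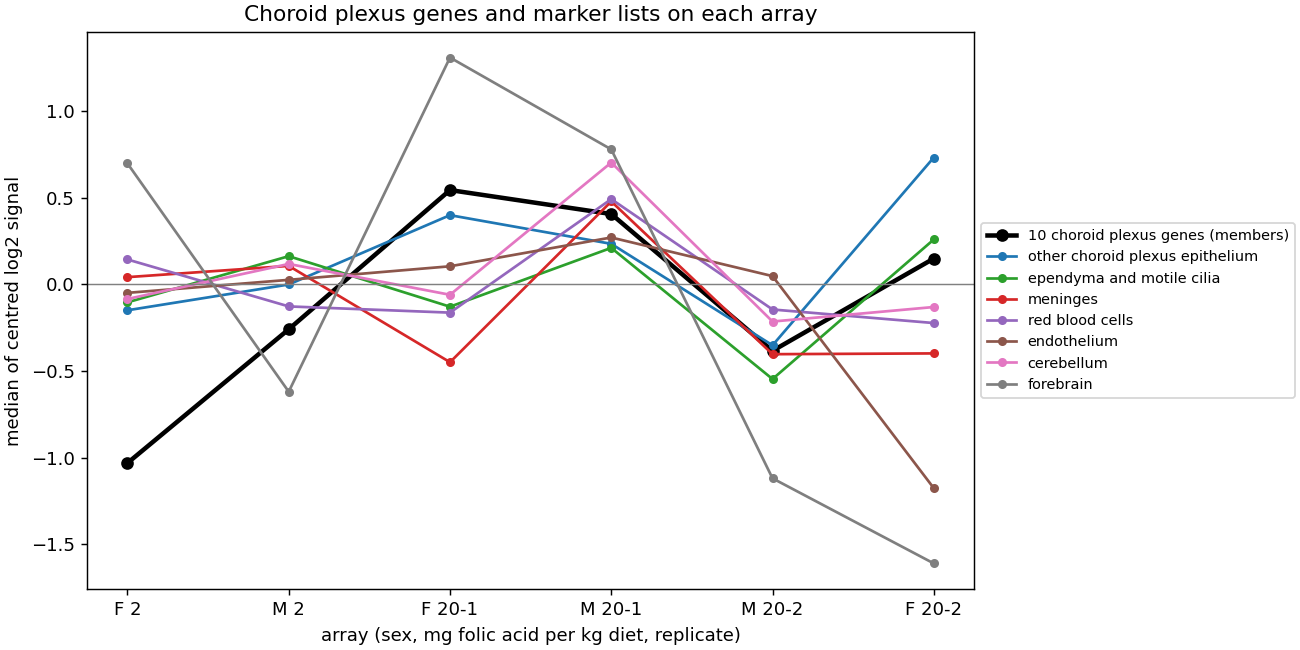
Median over genes of the log2 signal minus each gene's median over 6 arrays (y axis), for the 10 choroid plexus genes (black) and 7 marker lists on each array (x axis; lines only join values of the same list). The 10 genes run from -1.03 on the female 2 mg array to 0.55 on female 20 mg replicate 1, and the forebrain list from -1.61 to 1.31.

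Other probes were ranked by how closely their profile followed the mean centred profile of the 10 genes, among 19823 probes with a symbol that were well above background on at least 5 arrays. Over 6 arrays the 10 nearest were Cdk9, Ublcp1, Apcdd1, 2700054A10Rik, Stam, Strada, Sdcbp, Nfyb, Cdv3 and Ankhd1, with r from 0.98 for Cdk9 to 0.92 for Ankhd1, and 6 probes exceeded 0.95. Over the 5 arrays without the dim one, 93 probes (0.469%) exceeded 0.95. The 10 nearest were then Gm5480, Bcar1, Preb, Car12, Rnf7, Cops8, Cttn, Gm8225, Trak2 and Cdk9, with r from 0.986 to 0.994, too close for their order to carry weight. Cdk9 was in both lists, and Car12 is the 1 gene of them that was also on the list of choroid plexus genes.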

How the data were processed

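RNA of 6 pools was hybridised by the authors to Agilent SurePrint G3 mouse single-colour arrays. The deposited scanner files hold the processed signal intensity of each spot, background-subtracted by the authors with Agilent Feature Extraction 10.7.3.1, and flags such as well above background. A second deposited table holds the authors' log2 values, quantile normalized with a floor of 10, and was used as an alternative. Probe positions come from the file annotation (mm9) and promoters from RefSeq (GRCm38.p6).

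Here, 62976 spots were reduced to 59305 non-control spots, outlier spots were left out, and spots were averaged into 55681 probes. The intensity was quantile normalized, given a floor of 10 afterwards and converted to log2. Probes that were well above background on at least 2 arrays and measured on all 6 (37211) were tested with limma 3.58.1 in R 4.3.3 on 4 groups of sex and dose, with Benjamini-Hochberg adjustment over all of them and a threshold of 0.05. The criterion of the study was a variation filter at p of 0.05, at most 50% missing values and a 2.5-fold difference between means. Arrays were grouped by title. No spot was saturated. Each group has 1 or 2 arrays, and this number limits precision. The limma step and a fold rule were tried on 37211 simulated probes, 200 of them changed by 4 on the log2 scale. When scatter was small (SD 0.2), both recovered 100% in each sex. In a second run the SD was the spread that the limma fit gave to probes of like brightness, and it was equal on all arrays. No dim array and no slide effect were simulated, so the rates need not hold for these arrays. In that run limma recovered 20.5% in females and 22.5% in males, making 0 and 3 false calls. There the fold rule recovered 87% and 85.5%, making 4407 and 4368 false calls. A limma count of 0 can therefore miss real changes of this size.

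The 10 genes and all lists were chosen with earlier results of these data known. The brightest probe represented a gene, up to 6 genes per list with the highest mean signal were named, and the 10 probes with the nearest profile, as well as genes marked as named after their values were seen. Alternatives were the 75th percentile shift, the floor set first, normexp (offset of 50), brightness without background correction, the deposited values, other probe rules, leaving out arrays and slide as a block.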

Additional observations from a re-analysis of the deposited data

Results flagged for a closer look

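Aqp1 differed in direction between the sexes. How many of all probes did the same was not counted, so the pattern is not shown to be particular to Aqp1. Both female 20 mg arrays lay above the female 2 mg array, by 2.92 and 2.11 on the log2 scale, and both male 20 mg arrays lay below the male 2 mg array, by -0.87 and -0.90. The female dose difference exceeded the male one by 3.41 (limma SE 2.36). The difference was not tested for this gene on its own, since it was chosen with its values known. In the limma fit over all 37211 probes, 0 had a sex difference in the dose effect after adjustment, and 51 had an unadjusted p under 0.05. Each direction rests on a single 2 mg array, and the male 2 mg array exceeded the female 2 mg array by 1.35 for Aqp1.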

How the results depend on the processing

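In females the median dose difference of the 10 genes stayed above 0 in every alternative run. It was 1.78 with normexp, 1.73 without background correction, 0.90 with the mean over all probes of a gene and 2.80 for the 7 genes well above background on all 6 arrays, beside 2.29, where the last choice drops genes for low values on a female 20 mg array and so raises the median by construction. The shift to a common 75th percentile moved the female median of all probes from -0.21 to 0.45, and relative to it the median of the 10 genes was 1.97. The variation filter then kept 0 of the 10, so that the count past 2.5-fold fell from 5 to 0 in females, while 7 passed the fold alone. The male median ran from -0.14 without male 20 mg replicate 1 to 0.98 without male 20 mg replicate 2 when arrays were left out, and the male count from 0 to 1. Alternatives for the 2 mg arrays were chosen after seeing the data: the median of both sexes was 1.03, and ran from 0.38 without the female 2 mg array to 2.28 without the male 2 mg array. The mean correlation was 0.20, 0.071 with the mean over all probes of a gene, and from 0.093 to 0.42 when 1 array was left out. The limma count for both sexes was 0, rose to 1 with slide as a block (median of the 10 genes 1.75), and ran from 0 to 11 when 1 array was left out. Of single genes, the female call was lost for Slc4a5 with the mean of its probes (0.51), for Prlr without background correction (-1.28) or without the dim array (-0.79), and for Aqp1 without female 20 mg replicate 1 (2.08), where the variation filter did not keep it. The causes were not tested. Of the comparisons on the sets, 72 counted as unchanged, 12 as moved and 1 as reversed, by a rule that differed between measures. Medians of 1 sex had to stay within the spread between replicates and mean correlations within 0.1. For the median of both sexes, the spread was an SD of 1.12 over the single 20 mg arrays of males and females together. It includes the difference between the sexes and exceeds the median of 1.03 itself, so that the 13 unchanged results for this median carry little weight. Counts past 2.5-fold had to stay close to the main count, and limma counts at 0. For single genes, 175 differences stayed within the spread or, for called genes, past 2.5-fold, where the variation filter was not considered. A further 22 moved by more than the spread between replicates, and 3 of called genes fell below 2.5-fold. A difference within the spread could still change sign. Without male 20 mg replicate 1, the male difference turned to -0.18 for Kcnj13 and to -0.11 for Slc4a5. No paired analysis was possible because the doses compared share fewer than 2 replicate numbers. Dim signal limits Prlr, Sostdc1 and Kl on female 20 mg replicate 2, and a single 2 mg array per sex leaves no measure of spread at that dose.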
